A study of Mus musculus with 10 samples.

Results

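The 10 genes described here are regulators of mitochondrial biogenesis and of mitochondrial dynamics, measured by RNA sequencing of interscapular brown adipose tissue (iBAT) of WT mice and mice labelled Mgp-KO. They were taken by symbol and comprise the estrogen-related receptors Esrra, Esrrb and Esrrg, the nuclear respiratory factors Nrf1 and Gabpa, the mitochondrial DNA factors Tfam and Tfb2m, the fusion GTPases Mfn2 and Opa1, and the fission GTPase Dnm1l. Each of the 10 was found among the 27267 genes listed, and 9 of them entered the tests, which took the 13714 genes whose normalized count averaged 10 or more. Esrrb, with a mean of 9.12, was not tested.

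The libraries came from male mice of 4 weeks on a chow diet, labelled as strain C57BL/6, with 5 wild-type mice (WT) and 5 mice labelled Mgp-KO, 1 library for each mouse. Mgp encodes matrix Gla protein, a secreted inhibitor of bone morphogenetic proteins, and the methods name the line B6.129S7-Mgptm1Kry/KbosJ, in which the gene is deleted in the whole animal. Because the deletion is global and these animals have a short life span with vascular disease, a difference in iBAT cannot be assigned to loss of Mgp in any cell type. The question for these 10 genes is whether the transcripts that set mitochondrial mass and shape differed between the genotypes, over the 10 libraries and within the replicates numbered 1 to 3 and those numbered 4 and 5.

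Brown adipocytes are packed with mitochondria, where uncoupling protein 1 turns the proton gradient into heat. PGC-1 coactivators bind estrogen-related receptors and nuclear respiratory factors, which switch on nuclear genes of the respiratory chain and of the mitochondrial transcription machinery, among them Tfam. Mitofusin 2 and OPA1 join the outer and inner membranes of neighbouring mitochondria, and DRP1, the product of Dnm1l, divides them.

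The libraries differed in ways that the genotype did not account for. Replicates 1 to 3 of both genotypes held between 19616366 and 22252260 reads on genes, of which 0.771 to 1.72% lay on the 2 mitochondrial ribosomal RNA genes, whereas in replicates 4 and 5 the reads came to between 9253793 and 13281873 and this share to 6.50 to 16.7%. Mgp, the targeted gene, was at 576, 489, 466, 1146 and 839 normalized counts in WT 1 to 5 and at 0, 0.765, 0.821, 500.2 and 331 in Mgp-KO 1 to 5 (named by their labels throughout), so the reads of Mgp-KO 4 and 5 went against their label. Xist, at 5094 normalized counts in WT 2 and between 0.754 and 44.0 in the other libraries, went against the male label of WT 2. The 15 brown adipocyte markers were present in every library with none at 0, led by Fabp4 and Ucp1, and their summed level was 243018 to 266054 normalized counts in WT 1 to 3 against 175746 to 210379 in Mgp-KO 1 to 3, and 418149 to 425719 in WT 4 and 5 against 220552 to 308854 in Mgp-KO 4 and 5. The sum was thus lower in Mgp-KO within both sets of replicates, with 11 of the 15 fold changes negative and 4 positive. Limma called 0 of the markers over the 10 libraries, with 5 at an unadjusted p under 0.05, against 10.4% of tested genes. DESeq2 called 2 as lower, against 2.26% of genes called in either direction. In a limma fit that also held the set, 3 of the 15 (Ucp1, Dio2 and Elovl3) were called lower, against 2.36% of tested genes called in either direction. The part of this shift in the levels of the 10 genes was not tested. In bulk tissue, fewer cells of a type and less RNA per cell cannot be told apart.

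The genes lie on 7 chromosomes of GRCm38 (mm10), with 3 of them (Gabpa, Opa1 and Dnm1l) on chromosome 16. The 18 promoter windows of the 10 members, 250 bases before to 50 after the RefSeq start site (GRCm38.p6), were searched on both strands for the core GCATGCGC bound by NRF1, the core CCGGAAG of ETS factors such as GABP, and the element AAGGTCA of estrogen-related receptors. The NRF1 core was in 3 of the 18 windows, 1 each in Esrra, Tfb2m and Opa1, against 2.71% of all 32851 promoter windows. The ETS core was in another 3 of the 18, in Gabpa, Tfam and Dnm1l, against 8.86%. The receptor element, found in 4.72% of all windows, was in 0 of the 18, which says only that these letters are not in these windows. A match is a description of the sequence, not evidence of binding.

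Opa1 and Esrra, in which the NRF1 core lies before the start site, are shown first. The first stretch is chr16:29579184-29579333 on the forward strand, directly before the Opa1 start, and the second is chr19:6921814-6921958 on the reverse strand, before the Esrra start. Capitals mark the NRF1 core, which in Opa1 lies on both strands in overlapping copies whose first bases are 59 and 57 bases before the start. In Esrra it begins 34 bases before the start.
Opa1: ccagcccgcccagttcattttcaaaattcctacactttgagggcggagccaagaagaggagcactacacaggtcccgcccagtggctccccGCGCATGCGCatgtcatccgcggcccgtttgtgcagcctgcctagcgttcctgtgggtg
Esrra: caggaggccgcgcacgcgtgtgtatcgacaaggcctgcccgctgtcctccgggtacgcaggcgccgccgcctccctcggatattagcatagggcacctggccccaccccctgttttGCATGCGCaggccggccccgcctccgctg

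The mitochondrial DNA factors and the remaining matches are shown to set the NRF1 core of Tfb2m beside the ETS core of Tfam, Gabpa and Dnm1l. The sequences are chr1:179546245-179546274 (reverse strand) for Tfb2m, chr10:71238073-71238102 (reverse strand) for Tfam, chr16:84835020-84835049 (forward strand) for Gabpa and chr16:16358545-16358574 (reverse strand) for Dnm1l. Capitals mark the core, which in Gabpa and Dnm1l is the reverse complement. Counted from the RefSeq start of each window, the core began 13 bases after it in Tfb2m and 12 after it in Dnm1l. It began 47 bases before it in Tfam and 93 before it in Gabpa. The gene positions given below, from GENCODE, reach upstream of these starts for Tfam, Gabpa and Dnm1l, so their stretches lie inside the genes.
Tfb2m: ctaggtcgttcGCATGCGCcattcgtaatg
Tfam: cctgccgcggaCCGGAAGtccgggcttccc
Gabpa: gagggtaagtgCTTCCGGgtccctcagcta
Dnm1l: gctgtcgcttcCTTCCGGccgctgaggacg

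Per kilobase of exon, the fusion gene Mfn2 was the most abundant member in WT iBAT, and the transcription factors spanned a wide range below it. The WT means in normalized counts per kb were 1276 ± 267 for Mfn2, 507 ± 88.6 for Opa1, 499 ± 89.4 for Esrra, 299 ± 77.9 for Dnm1l and 205 ± 63.4 for Gabpa (SD, n = 5). They were 165 ± 40.6 for Tfam, 84.0 ± 7.63 for Tfb2m, 65.5 ± 26.9 for Esrrg, 18.0 ± 2.89 for Nrf1 and 1.36 ± 1.70 for Esrrb. In that order the WT ranges of Opa1 and Esrra, of Dnm1l and Gabpa, of Gabpa and Tfam, and of Tfb2m and Esrrg overlapped, and those of the other neighbours did not. Among the estrogen-related receptors, Esrra stood above Esrrg in every library, and Esrrb was close to the detection floor of 3 reads per library (2.15 to 5.19 normalized counts).

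No member passed the test between the genotypes. Called were 0 of the 9 tested members at an adjusted p under 0.05 by limma with Benjamini-Hochberg adjustment, where 9 of 13714 genes (0.0656%) were called, and 0 had an unadjusted p under 0.05, against 10.4% of genes. DESeq2 on the recovered reads called 0 of the 10 members and 374 of 16549 genes (2.26%), with Nrf1 alone at an unadjusted p under 0.05 (12.6% of genes). The adjusted p of Nrf1 was 0.354 in DESeq2. EdgeR with TMM factors called 0 of the members and 3 genes in all. Limma also called 0 members without WT 2 and without Mgp-KO 4 and 5. The latter fit kept WT 4 and 5, so its values hold the difference between the replicate sets as well as the genotype. The groups overlapped in each of the 10 members, whereas they did not overlap in 3.5% of tested genes. The log2 fold changes were negative for 7 members and positive for 2, with a median of -0.26 beside a median of 0.03 over all tested genes, of which 47.3% were negative. The median of the members was -0.11 in DESeq2 and ran from -0.38 without Mgp-KO 1 to 0.066 without Mgp-KO 4 as each library was left out. Because a value that misses the threshold does not show equal levels, each fold change is given below with its 95% interval.

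Esrra encodes ERR alpha, a receptor without a known ligand that works with PGC-1 to drive oxidative genes. It was at 2334, 2308, 2707, 1769 and 1820.4 normalized counts in WT 1 to 5 and at 2200.0, 1848, 2039, 1277 and 1564 in Mgp-KO 1 to 5. The groups overlapped because WT 4 and 5 were the lowest of their group. The log2 fold change was -0.30 (95% interval -0.74 to 0.14, adjusted p = 0.648). With a term for the library set, which takes out the mean difference between replicates 1 to 3 and replicates 4 and 5, the interval narrowed to -0.57 to -0.03, with an unadjusted p of 0.0313 and an adjusted p of 0.211. The fold change was -0.27 among replicates 1 to 3 and -0.34 among replicates 4 and 5. It was -0.19 without Mgp-KO 4 and -0.093 without Mgp-KO 4 and 5, with WT 4 and 5 kept. Esrra lies at chr19:6910977-6921813 on the reverse strand and shares 73 exonic bases with Trmt112 on the opposite strand (mean 44.7 normalized counts). The strand setting of the counting is not given in the sources used here.

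Esrrg encodes ERR gamma, which like ERR alpha binds the promoters of oxidative genes and is abundant in tissues of high energy demand. Its values were 590.2, 514, 348, 157 and 422 normalized counts in WT 1 to 5 and 550.2, 369, 686, 64.8 and 246 in Mgp-KO 1 to 5. The range of Mgp-KO covered that of WT, with the lowest level of each genotype in replicate 4. The fold change of -0.33 had an interval of -1.60 to 0.94 (adjusted p = 0.889), the widest of the 9. It was 0.13 among replicates 1 to 3 and -1.02 among replicates 4 and 5, and it ran from -0.64 without WT 4 to 0.21 without Mgp-KO 4, the 1 library whose loss turned its sign.

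Esrrb, which is best known from pluripotent and inner ear cells, was counted in 11, 5, 5, 0 and 15 reads in WT 1 to 5 and in 17, 20, 8, 0 and 13 reads in Mgp-KO 1 to 5. Replicate 4 held 0 reads in both genotypes, which allows up to the floor of 3 reads. With no filter on low levels the log2 fold change was 0.48 (interval -1.57 to 2.52, adjusted p = 0.875 by limma), so a difference was not detectable at this depth. Esrrb lies at chr12:86361117-86521628 and Esrrg at chr1:187608791-188214885, both on the forward strand.

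Nrf1 encodes nuclear respiratory factor 1, which binds the promoters of cytochrome and mitochondrial transcription genes. It stood at 151, 180.4, 168, 229 and 197 normalized counts in WT 1 to 5 and at 208, 278, 181, 366 and 268 in Mgp-KO 1 to 5. The groups overlapped through Mgp-KO 1 and 3. Its fold change of 0.46 was the largest positive value of the 9 and lay within an interval of -0.01 to 0.93 (unadjusted p = 0.0555, adjusted p = 0.496). With the set term the interval was 0.11 to 0.81 (unadjusted p = 0.0152, adjusted p = 0.154). Among replicates 1 to 3 the value was 0.40 and among replicates 4 and 5 it was 0.56. Without Mgp-KO 4 and 5, with WT 4 and 5 kept, it was 0.25. The gene lies at chr6:30047988-30153458 on the forward strand.

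Gabpa encodes the DNA-binding subunit of GABP, also called nuclear respiratory factor 2. The normalized counts were 1022, 1295, 765, 1032 and 1717 in WT 1 to 5 and 1082, 1854, 1489.5, 683 and 1069 in Mgp-KO 1 to 5. The groups overlapped, with the highest level in Mgp-KO 2 and the lowest in Mgp-KO 4. Over the 10 libraries the fold change was 0.06 (interval -0.57 to 0.69, adjusted p = 0.965), from 0.52 among replicates 1 to 3 and -0.64 among replicates 4 and 5. It turned negative without WT 3 (-0.08), Mgp-KO 2 (-0.11) or Mgp-KO 3 (-0.03). Gabpa (chr16:84834925-84863779, forward strand) shares 397 exonic bases with Atp5j on the opposite strand, a gene with a mean of 2066 normalized counts. Reads in the shared bases may affect the count of Gabpa, in a direction that is not known here.

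Tfam encodes the protein that packages mitochondrial DNA and starts its transcription. It was at 593, 645, 647, 731 and 1042 normalized counts in WT 1 to 5 and at 629, 535, 602, 355 and 789 in Mgp-KO 1 to 5. WT 5 was the highest and Mgp-KO 4 the lowest library, and Mgp-KO 1 was above WT 1. The fold change was -0.35 (interval -0.86 to 0.17, adjusted p = 0.653), and it was -0.10 among replicates 1 to 3, -0.72 among replicates 4 and 5, -0.18 without Mgp-KO 4 and -0.21 without WT 5. Tfam lies at chr10:71225464-71238280 on the reverse strand.

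Tfb2m encodes mitochondrial transcription factor B2, which opens the promoter together with the mitochondrial RNA polymerase. Its normalized counts were 222, 218, 221, 265 and 251 in WT 1 to 5 and 228, 285, 282, 76.1 and 207 in Mgp-KO 1 to 5. The WT libraries lay close together (mean 235 ± 21.4, SD, n = 5), while Mgp-KO 4, with 47 reads, stood far below the other libraries. The fold change of -0.26 (interval -0.96 to 0.45, adjusted p = 0.832) ran from -0.39 without Mgp-KO 2 to 0.08 without Mgp-KO 4. It was 0.26 among replicates 1 to 3 and -1.03 among replicates 4 and 5. Its position is chr1:179528055-179546267 on the reverse strand.

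Mfn2 encodes mitofusin 2, which fuses outer membranes and tethers mitochondria to the endoplasmic reticulum and, in brown adipocytes, to lipid droplets. It reached 7009, 7291, 8336, 4802 and 5697 normalized counts in WT 1 to 5 and 8464, 7840.1, 7896, 2467 and 4108 in Mgp-KO 1 to 5. The 3 highest libraries besides WT 3 were Mgp-KO 1 to 3, and the 2 lowest were Mgp-KO 4 and 5. The fold change was -0.23 over all libraries (interval -0.98 to 0.52, adjusted p = 0.864), 0.10 among replicates 1 to 3, -0.72 among replicates 4 and 5, and from -0.38 without Mgp-KO 1 to 0.07 without Mgp-KO 4 with each library left out. Mfn2 lies at chr4:147873599-147904704 on the reverse strand.

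Opa1 encodes the GTPase that fuses inner membranes and holds cristae in shape. Its normalized counts were 4299, 4354, 4248, 2747 and 4316 in WT 1 to 5 and 3990.0, 3769.8, 4046, 1292 and 2661 in Mgp-KO 1 to 5. Mgp-KO 4 and 5 were the lowest libraries. WT 4 lay far below the other WT libraries and kept the groups from being apart. The fold change of -0.43 (interval -1.12 to 0.25, adjusted p = 0.672) was -0.14 without Mgp-KO 4, with -0.13 among replicates 1 to 3 and -0.89 among replicates 4 and 5. Opa1 lies at chr16:29579334-29654884 on the forward strand.

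Dnm1l encodes DRP1, the dynamin-related GTPase that is recruited to the outer membrane and constricts it. It was at 1406, 1649, 947, 1749 and 2023 normalized counts in WT 1 to 5 and at 906, 1469, 1334, 2053 and 1957 in Mgp-KO 1 to 5. The genotypes covered almost the same range. The fold change was -0.02 (interval -0.61 to 0.56, adjusted p = 0.983), -0.10 among replicates 1 to 3 and 0.09 among replicates 4 and 5, and its sign changed when WT 2, WT 4, WT 5, Mgp-KO 1 or Mgp-KO 3 was left out (0.0078 to 0.15). Dnm1l (chr16:16312230-16358959, reverse strand) shares 243 exonic bases with the antisense gene Gm49521. That gene was not found by symbol among the genes listed, so its level is not known here.

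**Figure D1:**
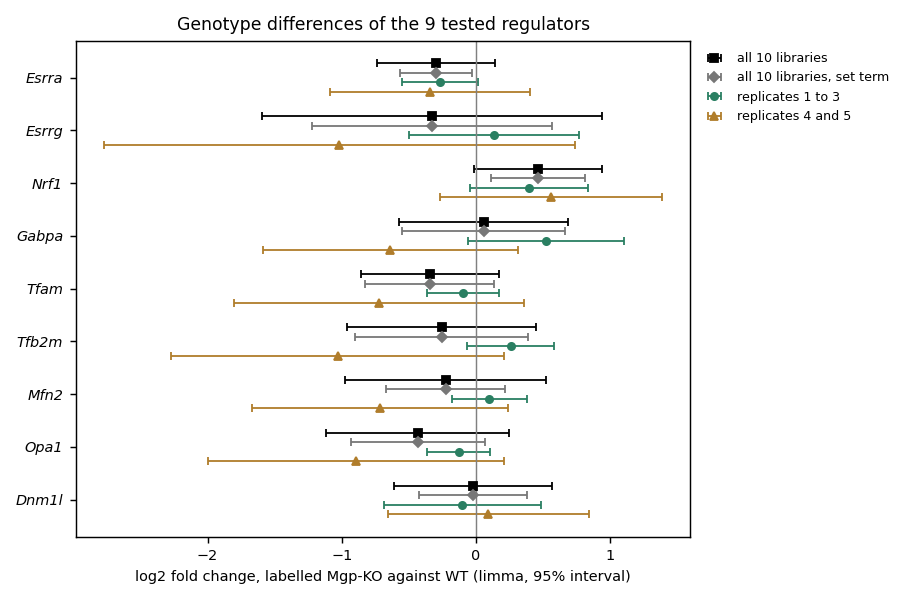
Log2 fold change of the libraries labelled Mgp-KO against WT (horizontal axis) for the 9 tested regulators, with 95% intervals from limma. Black squares use all 10 libraries, grey diamonds add the set term, green circles use replicates 1 to 3 and brown triangles use replicates 4 and 5; the brown intervals all include 0, and those of Esrra and Nrf1 exclude 0 only with the set term.

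The term for the library set left 0 of the 9 members called, where 324 of 13714 genes (2.36%) were called by limma, and 2 members, Esrra and Nrf1, had an unadjusted p under 0.05, against 19.3% of genes. DESeq2 with the same term called 0 of the 10 and 7.42% of genes, with adjusted p = 0.0942 for Esrra and adjusted p = 0.0826 for Nrf1. Among replicates 1 to 3, 0 of 9 members and 3.54% of genes were called, and 0 members and 22% of genes had an unadjusted p under 0.05. The unadjusted p of the members there ranged from 0.0581 (Esrra) to 0.696 (Dnm1l), and those under 0.1 were Esrra, Nrf1 (0.0705) and Gabpa (0.0717). Among replicates 4 and 5, limma called 0 of 9 members and 0 genes in all, while 0 members and 6.23% of genes had an unadjusted p under 0.05.

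The fold changes of Esrra, Nrf1, Tfam and Opa1 had the same sign within both library sets. This was true of 4 of 9 members and of 60.3% of all tested genes. Taken by replicate number, 3 of 9 members had one direction in 5 of 5 comparisons, Esrra and Opa1 lower and Nrf1 higher in Mgp-KO, beside 18.9% of tested genes. The methods speak of pairs of mice without tying a pair to a number, and the numbers did not meet the rule for pairing. The median fold change of the 9 was 0.10 among replicates 1 to 3 and -0.72 among replicates 4 and 5, where the medians of all tested genes were 0.02 and 0.02. The difference between the 2 genotype effects was tested as an interaction of genotype and library set. It was called for 0 of 9 members by limma, where 1 gene of 13714 (0.00729%), Mgp itself, was called. The unadjusted p by limma was 0.0321 for Gabpa, with a difference of -1.16, 0.0234 for Tfb2m (-1.29) and 0.0343 for Mfn2 (-0.82). A value under 0.05 was found in 10.3% of genes, and the adjusted p of these 3 lay between 0.466 and 0.470. This count rested on single libraries. Without Mgp-KO 5, which leaves 1 Mgp-KO library in its set and assumes that it varies like the others, Tfam, Tfb2m, Mfn2 and Opa1 were called among 1612 genes, with differences of -1.20, -2.01, -1.18 and -1.29. Without Mgp-KO 4 the differences of these 4 shrank to -0.049, -0.57, -0.45 and -0.24 and that of Gabpa to -0.84 (adjusted p of 0.667 to 0.973 by limma).

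Between the library sets 5 of 9 members passed the test. In replicates 4 and 5, Esrra, Esrrg, Mfn2 and Opa1 were lower than in replicates 1 to 3 and Dnm1l was higher, in a fit that also held the genotype. These 5 of 9 members stand beside 38.2% of all tested genes called by limma, of which 19.9% of genes were lower and 18.3% higher, so a difference between the sets was common throughout the transcriptome. The labels name no batch, and depth, ribosomal RNA content and replicate number cannot be told apart here.

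Mfn2 averaged 7806 ± 570 normalized counts in replicates 1 to 3 (SD, n = 6) and 4268 ± 1366 in replicates 4 and 5 (SD, n = 4). The log2 difference was -0.93 with an SE of 0.21 (adjusted p = 0.00489), and the highest library of replicates 4 and 5, at 5697, lay below the lowest of replicates 1 to 3, at 7009. Esrra fell by 0.48 on the log2 scale with an SE of 0.12 (adjusted p = 0.0112), from 2239 ± 292 to 1608 ± 247 normalized counts. Its sets did not overlap either, with 1820.4 as the highest value of the one and 1848 as the lowest of the other.

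Dnm1l rose by 0.63 with an SE of 0.19 (adjusted p = 0.0214), from 1285 ± 297 to 1945 ± 137 normalized counts. Its lowest library of replicates 4 and 5, at 1749, was above the highest of replicates 1 to 3, at 1649. Sets without overlap were seen in 3 of 9 members, against 25.2% of tested genes. With each library left out in turn, the adjusted p by limma reached at most 0.0142 for Mfn2, 0.0300 for Esrra and 0.0476 for Dnm1l.

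The difference of Esrrg was -1.45 with an SE of 0.42 (adjusted p = 0.0178), and that of Opa1 was -0.70 with an SE of 0.23 (adjusted p = 0.0331). In both the sets overlapped through WT 5, which held 422 normalized counts of Esrrg and 4316 of Opa1. Neither call was stable to the loss of 1 library. Opa1 missed the threshold without WT 4, Mgp-KO 1, Mgp-KO 2 or Mgp-KO 3, with differences of -0.67, -0.66, -0.68 and -0.66 (adjusted p of 0.0837, 0.069, 0.053 and 0.0705 by limma), and in edgeR (-0.64, adjusted p = 0.0521). Without Mgp-KO 4 it passed with a difference of -0.41. Esrrg missed it without WT 4 (-1.31, adjusted p = 0.0580) and was at -0.95 without Mgp-KO 4.

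The remaining members did not pass between the sets. Nrf1 was the nearest, with a difference of 0.44 (interval 0.08 to 0.80, adjusted p = 0.0556), and it passed without Mgp-KO 2 (adjusted p = 0.0289 by limma). Gabpa was at -0.17 (interval -0.79 to 0.45), Tfam at 0.16 (-0.33 to 0.65) and Tfb2m at -0.42 (-1.08 to 0.24). Without Mgp-KO 4 the value of Tfam was 0.46 (adjusted p = 0.0208), and those of Gabpa and Tfb2m were 0.09 and 0.0076.

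**Figure D2:**
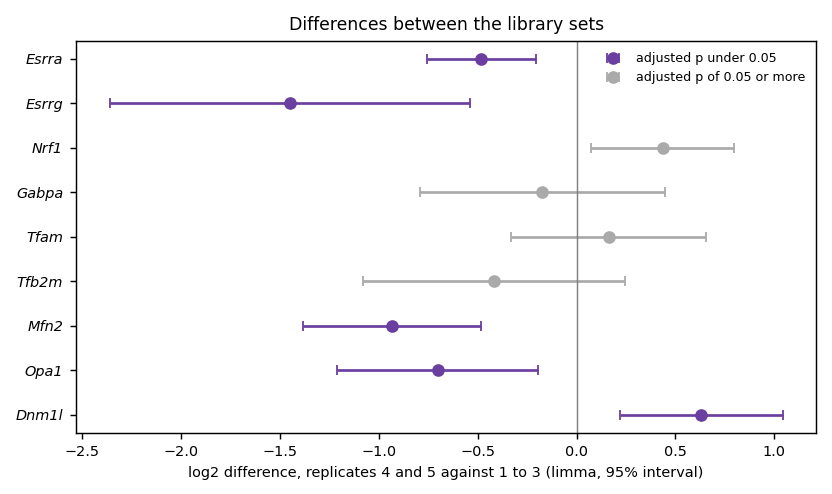
Log2 difference of replicates 4 and 5 against replicates 1 to 3 (horizontal axis) for the 9 tested regulators, from a limma fit that also holds the genotype, with 95% intervals. Purple marks an adjusted p under 0.05; Esrra, Esrrg, Mfn2 and Opa1 lie below 0 and Dnm1l at 0.63 above it.

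The library Mgp-KO 4 took an extreme place in each tested member. It was the lowest of the 10 libraries in 7 of 9, namely Esrra, Esrrg, Gabpa, Tfam, Tfb2m, Mfn2 and Opa1, and the highest in Nrf1 and Dnm1l. Over all tested genes it was the lowest library in 24.5% and the highest in 25.8%. Several other measures were also extreme in it. Its share of mitochondrial ribosomal RNA was 16.7%, against 0.771 to 8.57% in the other libraries, and its share of reads on 12 mitochondrial protein genes was 9.46%, against 15.0 to 33.4%. The 12 endothelial markers, led by Cdh5 and Kdr and with none at 0 in any library, summed to 65348 normalized counts in it and to between 20608 and 34769 elsewhere. Between the genotypes 12 of the 12 endothelial fold changes were positive, with a median of 0.46 and of 0.23 without Mgp-KO 4, and within replicates 1 to 3 the sum was 24676 to 28648 in Mgp-KO and 20919 to 24037 in WT. The part of these measures in the levels of the 10 genes was not tested.

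Markers of skeletal muscle were high in 2 libraries. The 15 muscle markers, led by Acta1 and Myh4, summed to 39342 normalized counts in Mgp-KO 2 and 45047 in Mgp-KO 5, and to between 1453 and 8827 in the other libraries, with up to 3 of them at 0 in a library. Of the 9 tested members, Gabpa and Tfb2m were highest in Mgp-KO 2 and none was highest in Mgp-KO 5. Myeloid markers, led by Cd74 and Lyz2, summed to 1964 to 3097 normalized counts over the 10 libraries. Markers of adipose progenitors, led by Col3a1 and Col1a1, had a median fold change of -0.38 with 8 of 12 negative, and summed to 25136 to 49933 normalized counts in WT 1 to 3 against 12800.2 to 24208 in Mgp-KO 1 to 3, and to 17716 to 27201 in WT 4 and 5 against 17643 to 30057 in Mgp-KO 4 and 5. Limma and DESeq2 called 0 of these 12, with 3 at an unadjusted p under 0.05 in limma, against 10.4% of genes. DESeq2 with the set term called 1 of the 12 markers, as higher, against 7.42% of genes. Their part in the levels of the members was not tested either.

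The ratios of fusion to fission transcripts restate the set differences of Mfn2, Opa1 and Dnm1l within each library and are given as a description. The log2 ratio of Mfn2 to Dnm1l was 2.32, 2.14, 3.14, 1.46 and 1.49 in WT 1 to 5 and 3.22, 2.42, 2.57, 0.27 and 1.07 in Mgp-KO 1 to 5. That of Opa1 to Dnm1l was 1.61, 1.40, 2.17, 0.65 and 1.09 in WT 1 to 5 and 2.14, 1.36, 1.60, -0.67 and 0.44 in Mgp-KO 1 to 5. In both ratios the 4 libraries of replicates 4 and 5 lay below the 6 of replicates 1 to 3, and the genotypes overlapped. These ratios compare transcripts of unlike length, so only their differences between libraries can be read.

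**Figure D3:**
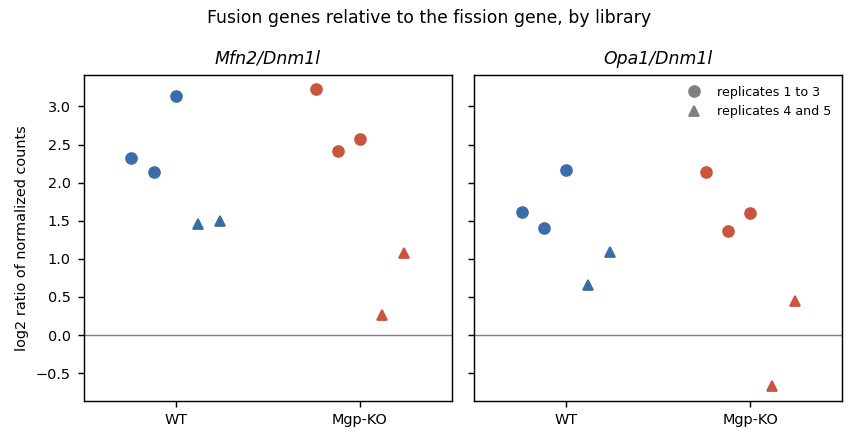
Log2 ratio of the normalized counts of Mfn2 (left) and Opa1 (right) to those of Dnm1l in each library (vertical axis), by genotype. Circles are replicates 1 to 3 and triangles are replicates 4 and 5; the triangles lie below the circles in both panels, with Mgp-KO 4 lowest at 0.27 and -0.67.

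By their correlations over the libraries, 7 of the 10 members were sorted into 2 opposed groups. Esrra, Esrrg, Tfb2m, Mfn2 and Opa1 were in the one and Nrf1 and Dnm1l in the other. Pearson correlations of log2(normalized count + 1) over the 10 libraries are given as a description, since the libraries share depth, ribosomal RNA content and set. Esrrg and Opa1 had r = 0.94, Mfn2 and Opa1 had 0.93, Esrrg and Mfn2 had 0.89, Esrra and Mfn2 had 0.89, and Esrra and Opa1 had 0.85. Nrf1 ran the other way, at -0.89 with Esrra, -0.85 with Opa1 and -0.80 with Esrrg, and Dnm1l was at -0.76 with Esrra and -0.75 with Mfn2. Esrrb, Gabpa and Tfam were at 0.099 to 0.697 with members of the first group and at -0.465 to 0.137 with those of the second. Inside the groups the lowest values were 0.58 for Esrra and Tfb2m and 0.51 for Nrf1 and Dnm1l. Across the groups Tfb2m and Dnm1l were nearest to 0, at -0.34. The groups were thus not sharply apart from the members left out.

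Taking the mean of each genotype within each set out of the values left some of these relations and not others. The correlation of Mfn2 and Opa1 was then 0.91, of Esrrg and Opa1 0.92, of Tfam and Opa1 0.98 and of Tfam and Mfn2 0.96, where the last pair had only 0.32 before. Esrra and Opa1 came to 0.60, Esrra and Nrf1 to -0.64 and Mfn2 and Dnm1l to -0.30. Dnm1l was then at 0.16 with Esrrg, 0.081 with Tfb2m and 0.038 with Opa1, so that it no longer ran opposite to these 3. With Esrra it stayed at -0.74, and Nrf1 and Esrrg stayed at -0.80. These values rest on few free libraries.

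**Figure D4:**
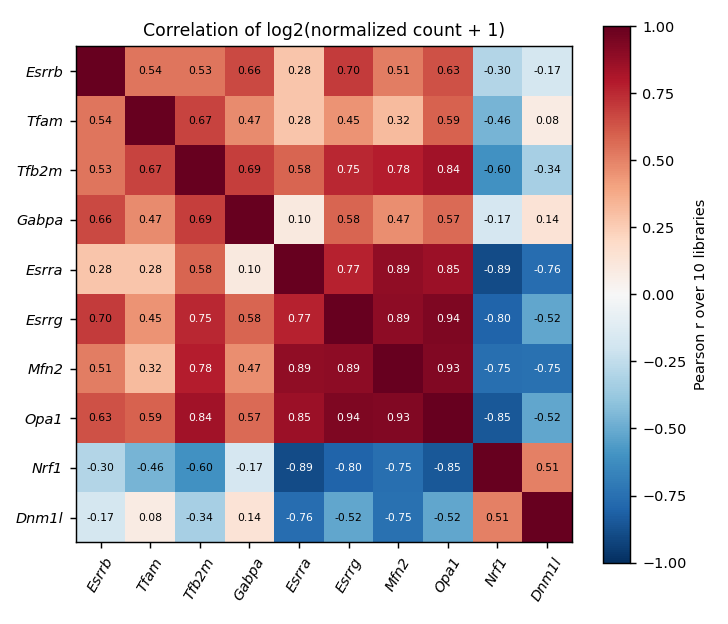
Pearson correlation over 10 libraries of log2(normalized count + 1) for the 45 pairs of the 10 regulators, on a colour scale from -1 (blue) to 1 (red). Esrra, Esrrg, Mfn2, Opa1 and Tfb2m form a block of values from 0.58 to 0.94, and Nrf1 and Dnm1l are negative against each of them.

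The tested genes whose pattern over the 10 libraries was most like that of a member were named by the highest Pearson r, as a description. For Opa1 they were Lrpprc (r = 0.99), which stabilizes mitochondrial messenger RNA, Isoc1 (0.99) and Ndufs1 (0.99), a core subunit of complex I. For Tfam they were Ndufaf1 (0.99), Lipt1 (0.98) and Idh3a (0.98), which assemble complex I, attach lipoic acid and work in the tricarboxylic acid cycle. For Esrrg they were Stambpl1 (0.99), Mthfsd (0.98) and the mitochondrially encoded mt-Nd2 (0.97). Esrra was followed by Tbc1d13 (0.99), Abcb8 (0.99), a transporter of the inner mitochondrial membrane, and Smarcal1 (0.98), and Mfn2 by Pofut2 (0.997), Cops7a (0.99) and Urgcp (0.99).

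For Nrf1 the closest were Pias1 (0.98), Zrsr1 (0.97) and Abcg2 (0.96), for Gabpa Zcchc8 (0.96), Rb1 (0.93) and Slain2 (0.93), and for Dnm1l Hnrnph1 (0.98), Gm10033 (0.97) and G2e3 (0.97). Tfb2m was followed by C920006O11Rik (0.97), Gm12781 (0.96) and Fam69a (0.96), and Esrrb, from few reads, by Mtap (0.93), Cpeb2 (0.92) and Exosc7 (0.92). Each was picked for its r among 13714 candidates, so high values follow from the choice.

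The coactivators through which the receptors and respiratory factors act were measured beside them. Ppargc1a, which encodes PGC-1 alpha, was at 1187.5, 910.5, 627, 2737 and 734 normalized counts in WT 1 to 5 and at 665, 852, 996, 1808 and 757 in Mgp-KO 1 to 5. Replicate 4 was the highest of each genotype, and the log2 fold change was -0.16 (interval -1.02 to 0.70, adjusted p = 0.923), from -0.40 without Mgp-KO 4 to 0.18 without WT 4. Ppargc1b, encoding PGC-1 beta, was at 1517, 1678, 1542, 1475 and 848 in WT 1 to 5 and at 1712, 2065, 2091, 5546 and 1386 in Mgp-KO 1 to 5. Mgp-KO 4 stood far above the other libraries, and the fold change was 0.71 (interval -0.05 to 1.46, adjusted p = 0.517) and 0.38 without Mgp-KO 4 (adjusted p = 0.550). Pprc1, the third of the family, was at 271, 288, 217, 281 and 206 in WT 1 to 5 and at 275, 271, 250.4, 468 and 118 in Mgp-KO 1 to 5, a fold change of 0.02 (interval -0.65 to 0.68, adjusted p = 0.990), from -0.21 without Mgp-KO 4 to 0.29 without Mgp-KO 5.

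Of the 10 coactivators, corepressors and partner subunits on this list, 0 were called between the genotypes by limma, with 1 at an unadjusted p under 0.05, and 8 of the 10 fold changes were positive (median 0.21, from 0.12 without WT 3 to 0.35 without WT 4). The 1 gene was Ncor1, a nuclear receptor corepressor, with 3169 ± 553 normalized counts in WT and 6071 ± 3540 in the libraries labelled Mgp-KO (SD, n = 5). Mgp-KO 4 held 12294 normalized counts of it and the other Mgp-KO libraries 4034 to 5642. The fold change was 0.80 (interval 0.15 to 1.46, adjusted p = 0.358) and 0.51 without Mgp-KO 4 (adjusted p = 0.236). DESeq2 with the set term called Ncor1 (adjusted p = 0.0343), though not without any 1 of the 5 WT libraries or Mgp-KO 2 (adjusted p of 0.0543 to 0.142). Nrip1, another corepressor of oxidative genes in fat, was at 0.49 (adjusted p = 0.649), at 0.27 without Mgp-KO 2 and at 0.29 without Mgp-KO 4. Between the sets only Gabpb1, the partner of GABP alpha, was called, at 0.49 higher in replicates 4 and 5 (adjusted p = 0.0353). It missed the threshold without WT 2, WT 3, WT 4, Mgp-KO 1, Mgp-KO 3 or Mgp-KO 4 (0.41 to 0.51, adjusted p of 0.0513 to 0.106 by limma).

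Among 17 tested genes of mitochondrial DNA transcription and replication, 0 were called between the genotypes by limma, with 0 at an unadjusted p under 0.05, and 11 fold changes were negative (median -0.17, from -0.28 without Mgp-KO 5 to -0.065 without WT 4). The lowest p belonged to Lonp1, the matrix protease that degrades TFAM, at -0.48 (interval -1.07 to 0.11, adjusted p = 0.582), Top1mt, the mitochondrial topoisomerase, at -0.27 (adjusted p = 0.605), and Tfb1m, the paralog of Tfb2m, at -0.61 (adjusted p = 0.640). Without Mgp-KO 4 Lonp1 was at -0.26 and Tfb1m at -0.17. Between the library sets 3 were lower in replicates 4 and 5, namely Polrmt (-1.40), the mitochondrial RNA polymerase, Lrpprc (-0.79) and Lonp1 (-0.65), and 5 were higher, namely Slirp (1.49), Mterf1a (1.19), Mterf2 (0.92), Ssbp1 (0.74) and Mterf3 (0.66). These 8 of 17 stand beside 38.2% of all tested genes, so a count near that share is no result about the list, and the same holds for the set differences of the other lists. These set differences were looked up after their values were seen. Lrpprc, Mterf1a and Mterf2 missed the threshold with 3, 6 and 8 of the libraries left out singly (adjusted p of up to 0.0793, 0.110 and 0.123 by limma), and the other 5 passed with any 1 library left out.

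On the list of fusion and inner membrane genes, 0 of 12 tested were called between the genotypes, with 1 at an unadjusted p under 0.05, and 10 fold changes were negative (median -0.23). Chchd3, a subunit of the MICOS complex that shapes cristae together with OPA1, was at 5985 ± 1236 normalized counts in WT and 3906 ± 955 in the group labelled Mgp-KO (SD, n = 5). Its fold change was -0.63 (interval -1.14 to -0.12, unadjusted p = 0.0195, adjusted p = 0.350 by limma). Stoml2 (-0.49) and Phb (-0.43), scaffold proteins of the inner membrane, had adjusted p of 0.489 and 0.525 by limma, and Phb was at -0.27 without Mgp-KO 4. As in Mfn2 and Opa1, the median of the list was near 0 among replicates 1 to 3 (-0.11) and at -0.72 among replicates 4 and 5. With each library left out it ran from -0.34 without WT 1 to -0.097 without Mgp-KO 4. Between the sets Immt was lower (-0.66) and Minos1 higher (1.58) in replicates 4 and 5, and Immt missed the threshold without WT 3, WT 4, Mgp-KO 1 or Mgp-KO 3 (-0.60 to -0.65, adjusted p of up to 0.0797 by limma).

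Of 10 tested genes of fission and its adaptors, 0 were called between the genotypes and 0 had an unadjusted p under 0.05 (7 negative, median -0.16). The median was -0.0056 among replicates 1 to 3, -0.50 among replicates 4 and 5, and from -0.26 without Mgp-KO 1 to -0.095 without Mgp-KO 4 with each library left out. Inf2, a formin that assembles actin at division sites, was at 0.47 (interval -0.0049 to 0.95, adjusted p = 0.486), Mtfp1 at -0.51 (adjusted p = 0.507) and Mtfr1 at -0.33 (adjusted p = 0.529). Mtfp1 was at -0.30 without Mgp-KO 4 and Inf2 at 0.31 without WT 5. The adaptors and partners of DRP1 did not share the set difference of Dnm1l in one direction. Fis1 was higher in replicates 4 and 5 (0.69), and Dnm2 (-0.90) and Mief1 (-0.49) were lower, the last not with 7 of the libraries left out singly (adjusted p of up to 0.0808 by limma).

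Mitophagy removes mitochondria that fission has set apart. Of 11 tested genes, 0 were called over the 10 libraries and 0 had an unadjusted p under 0.05. Among them 1, Optn, an adaptor that binds ubiquitin on damaged mitochondria, was called among replicates 1 to 3, where its fold change was 0.75 (adjusted p = 0.0304 by limma). This 1 of 11 stands beside 3.54% of all tested genes called in that fit. Of these 6 libraries, leaving out any 1 but Mgp-KO 2 put Optn above the threshold (adjusted p of 0.0616 to 0.149 by limma). Over all libraries Optn was at 0.39 (adjusted p = 0.666; 0.25 without Mgp-KO 2 and 0.66 without Mgp-KO 4), Park2, the ubiquitin ligase parkin, at 0.27 (adjusted p = 0.646) and Bnip3, a receptor of mitophagy, at 0.50 (adjusted p = 0.689), which was 0.22 without Mgp-KO 2 and 0.77 without Mgp-KO 4. The median of the list was 0.00, from 0.16 among replicates 1 to 3 and -0.31 among replicates 4 and 5, and it ran from -0.13 without Mgp-KO 2 to 0.17 without Mgp-KO 4. Between the sets Ulk1 (-1.49), Usp30 (-1.05) and Bcl2l13 (-0.89) were lower and Bnip3l (1.41) was higher in replicates 4 and 5.

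Genes known as targets of the members were read as lists, and DESeq2 without a further term called none on the 6 lists apart from that of the estrogen-related receptors. Of 14 targets of estrogen-related receptors, 0 were called by limma without a further term, with 1 at an unadjusted p under 0.05, and 12 fold changes were negative (median -0.17). The median was 0.066 among replicates 1 to 3, -0.73 among replicates 4 and 5 and -0.063 in DESeq2, and it ran from -0.40 without WT 1 to -0.018 without Mgp-KO 4 with each library left out. With the set term, and in DESeq2 also without it, 1 was called, Ucp1 (adjusted p = 0.0127), at 60876 ± 32192 normalized counts in WT and 10201 ± 5064 in the libraries labelled Mgp-KO (SD, n = 5), a fold change of -2.70 (interval -3.82 to -1.58). The call of Ucp1 with the set term held with any 1 library left out (adjusted p of up to 0.0423 by limma), and without that term it was called without Mgp-KO 4 (adjusted p = 0.0487). Acadm (-0.52, adjusted p = 0.532) and Idh3a (-0.50, adjusted p = 0.599), enzymes of fatty acid oxidation and the tricarboxylic acid cycle, did not pass and were at -0.31 and -0.27 without Mgp-KO 4. Esrra and Esrrg themselves were at -0.30 and -0.33.

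Of 14 targets of NRF1 and GABP, 0 were called between the genotypes and 0 had an unadjusted p under 0.05, and 11 fold changes were negative (median -0.13), where Nrf1 itself was at 0.46 and Gabpa at 0.06. The median was -0.058 among replicates 1 to 3 and -0.30 among replicates 4 and 5, and it ran from -0.19 without Mgp-KO 5 to -0.010 without WT 4. The lowest p belonged to Tfb1m, Tomm20, an import receptor of the outer membrane (-0.30, adjusted p = 0.648), and Sdhd, a subunit of complex II (-0.50, adjusted p = 0.661). Without Mgp-KO 4 Tomm20 and Sdhd were both at -0.17. Between the sets Cycs, which encodes cytochrome c and is also on the receptor list, was higher in replicates 4 and 5 by 3.45 on the log2 scale, Cox6c by 1.20 and Cox5b by 0.53, while Polrmt, Alas1 (-1.30) and Tomm34 (-0.65) were lower. Of these, Cox5b missed the threshold with 6 of the libraries left out singly (adjusted p of up to 0.111 by limma) and Alas1 without WT 4 or Mgp-KO 4 (-1.14 and -0.89).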

How the data were processed

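RNA of iBAT from 10 mice, 5 per genotype as labelled, was sequenced by the authors with single reads of 50 bases, mapped with STAR to mm10 and counted on genes. The deposited values are a signal per gene, the counts divided by a DESeq2 size factor (normalized counts). The annotation release and strand setting are not given in the sources used here. All values (100%) were whole multiples of 1 read within 0.01 reads, so reads were recovered (9253793 to 22252260 per library), and no column of the table was left unused. Floors of 3 reads cover counting error only.

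Tests used limma 3.58.1 in R 4.3.3 (eBayes with trend) on log2(normalized count + 1) for genes with a mean of at least 10, with Benjamini-Hochberg adjustment over all of them and a threshold of 0.05. Fold changes are on the log2(normalized count + 1) scale. Models held the genotype alone, the genotype and library set, or their interaction. EdgeR 4.0.16 (3 genes called) and DESeq2 1.42.0 (374 called) on recovered reads, other pseudocounts (0.5 and 10), filters, scalings, a replicate block, each set alone and each library left out were alternatives. The steps were also run on simulated data. These held no label conflicts or widespread set differences, so that run does not measure performance on these libraries. P-values measure the spread between these libraries.

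Named are the 10 members, Mgp, Ppargc1a, Ppargc1b and Pprc1, genes of each pathway list past the threshold without or with the set term, or otherwise the 3 with the lowest p, the 2 highest markers of each cell type, and the 3 genes most like each member. Genes called between the sets, and Xist, were named after their values were seen. Members and lists were chosen with earlier results of these data known. Micos13, Marchf5 and Calcoco2 were not matched by symbol. Positions are from GENCODE (GRCm38) and promoter windows from RefSeq (GRCm38.p6), in which 10 of 10 members were matched.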

Additional observations from a re-analysis of the deposited data

Results flagged for a closer look

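Opa1 in WT 4 lay far from its group. At 2747 normalized counts it was the lowest of the 5 WT libraries, whose other values were 4248 to 4354, and its gap to the nearest of them was 0.934 of the range of the group, above the critical value of 0.71 for 5 samples (Dixon's test at 95%). Among 20 groups looked at, chance alone marks about 1 in 20. WT 4 was also the lowest WT library in Esrra, Esrrg and Mfn2, and Mgp-KO 4, with 1292, was the lowest library of all in Opa1.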

How the results depend on the processing

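Under the 28 alternatives for the genotype, 0 of the members were called in each. The number of genes called over the transcriptome, 9 as reported, was 29 with a pseudocount of 10, 1 with no filter, 15 with a mean of at least 50, 34 with quantile normalization, 3 in edgeR and 374 in DESeq2. It was 324 with the set term, 1152 with that term in DESeq2, 486 within replicates 1 to 3 (1354 in DESeq2), 0 within replicates 4 and 5, 267 without Mgp-KO 4 and 5, and 678 with the set term and without Mgp-KO 4, a setting added after the data were seen. Leaving out each library in turn gave 0 to 93.

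The replicate numbers did not meet the rule for pairing, since the correlation of deviations was 0.0559 for number 2 and over 0.1 for the other 4. Libraries of the same number had a mean correlation of 0.390, those of another number in the same set 0.416. With the replicate block 270 genes were called in limma and 222 in edgeR, and 0 members in both. Under the block the unadjusted p of Nrf1 was 0.0153 and of Opa1 0.0498 (limma, adjusted p of 0.156 and 0.260).

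Between the genotypes the 28 alternatives gave -0.38 to -0.093 for Esrra, 0.25 to 0.58 for Nrf1, -0.72 to -0.096 for Tfam and -0.89 to -0.00030 for Opa1, where the values of Esrra, Nrf1 and Opa1 nearest to 0 came without Mgp-KO 4 and 5 (adjusted p = 0.999 for Opa1). Esrrg, Tfb2m and Mfn2 changed sign within replicates 1 to 3 (0.13, 0.26 and 0.10; in DESeq2 0.14, 0.26 and 0.088) and without Mgp-KO 4 and 5 (0.48, 0.17 and 0.31), and the first 2 also with the set term without Mgp-KO 4 (0.072 and 0.082). The fit without Mgp-KO 4 and 5 kept WT 4 and 5 and had no set term, so its values also hold the difference between the sets. Gabpa was at -0.64 and Dnm1l at 0.092 within replicates 4 and 5. Leaving out each library gave -0.64 to 0.21 for Esrrg, -0.39 to 0.081 for Tfb2m, -0.38 to 0.066 for Mfn2, -0.11 to 0.25 for Gabpa and -0.19 to 0.15 for Dnm1l.

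Between the library sets 3 to 6 members were called with a library left out (3 without WT 4), and Tfam ranged from -0.0083 to 0.46, Gabpa from -0.45 to 0.085 and Tfb2m from -0.58 to 0.0076. Nrf1 passed with a mean of at least 50, equal upper quartiles or quantile normalization. The interaction was called for 61 genes in DESeq2 and for 1 to 1612 with a library left out, and for 0 to 4 members. Its value for Esrra was 0.043 with equal upper quartiles, 0.091 with quantile normalization and -0.22 to 0.073 with a library left out, for Nrf1 -0.059 to 0.39 and for Dnm1l -0.015 to 0.42. For the other members it kept its sign, nearest to 0 without Mgp-KO 4 for Esrrg (-0.20), Tfam, Tfb2m, Mfn2 and Opa1 and without WT 5 for Gabpa (-0.79). The cause of these shifts was not tested. Depth limits Esrrb, with at most 20 reads in a library. Leaving out single libraries for the pathway genes, given beside them, was also added after the data were seen.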
